A study of Mus musculus with 6 samples.

Results

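The mRNAs described here encode cytosolic translation initiation, elongation and release factors, and related proteins such as the eEF2 kinase, eIF4E-binding inhibitors and methyltransferases. All are called translation factor genes below. Genes were taken when an array feature with exactly 1 gene symbol carried a symbol beginning with Eif or Eef, or was Etf1, Gspt1 or Pabpc1. The eIF2 subunits and eIF2 kinases, Eif4ebp1 and Eef1e1 were left out by that rule. It gave 45 genes, each with 1 feature, of 14860 genes with a feature of their own and 16755 features in all. Below, a gene is called measured when it had a feature of its own. A further 7 genes that the rule would take (Eef1a1, Eef1g, Eif3j1, Eif4a2, Eif4ebp3, Eif5a and Eif6) shared a feature with other genes and were not analysed here, and 12, among them Eif1, Eif4a1 and Eif4g1, were not analysed here because no feature was listed for them.

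The samples were tibialis anterior muscles of 3 mice with a muscle-specific deletion of Atf4 (ATF4 mKO) and of 3 littermate control mice. All 6 were males aged 8 weeks that had gone without food for 24 h. The sources used here do not name the driver of the deletion or the exact genotype of the controls. Each value is the log2 expression of 1 array feature in 1 mouse. Because probes differ in brightness, fold changes are taken between mice for a gene. A percentile of the mean level among all features is given only to show how far a feature stood from the dimmest signals, and ranks no gene's expression against another's.

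Initiation begins when a small ribosomal subunit, carrying the initiator tRNA on eIF2, is brought to the capped end of an mRNA by eIF3 and the eIF4 cap-binding factors. It scans to a start codon, where eIF1, eIF1A and eIF5 govern recognition and eIF5B joins the large subunit. Spent eIF2 is recharged by the exchange factor eIF2B, which phosphorylated eIF2 blocks. That block lowers most translation while favouring translation of the ATF4 mRNA. Elongation uses eEF1A to deliver tRNAs and eEF2 to move the ribosome, and release factors end the chain. In muscle, eEF1A is made mainly from Eef1a2, and translation is throttled during fasting through eIF4E-binding proteins and the eEF2 kinase.

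The deletion was visible in the Atf4 signal (feature 6831994), which was 6.73, 7.07 and 6.97 in ATF4 mKO muscle, against 8.65, 8.76 and 8.76 in control muscle. Its log2 fold change was -1.80 ± 0.10 (SE), with an adjusted p of 0.00268 in limma. In total 2 features passed the threshold of an adjusted p of 0.05, both lower in ATF4 mKO muscle: Atf4 and Yars, the tyrosyl-tRNA synthetase gene, which had -0.84 (95% interval -1.01 to -0.67). Atf4 was the 1 feature that still passed with any single mouse removed. Muscle fibre genes such as Acta1 and Ckm, 7 measured of 9 listed, lay at percentiles 99.2 to 100 of the mean level of all features. Summed as a mean log2 level per mouse, they ran from 11.88 to 11.92 in ATF4 mKO and from 11.87 to 11.90 in control muscle. For all 9 marker lists, of muscle fibres and 8 other cell types, the ranges of the groups overlapped. Of the 35 measured markers of the other cell types none passed the threshold. At an unadjusted p under 0.05 in limma there were 2, Cnn1 and Tie1, both higher, beside 3.09% of all features in either direction. In 6 of the 35 every ATF4 mKO mouse lay above every control, beside 3.89% of all features, and in 0 every one lay below. The 6 were the smooth muscle genes Cnn1 (128% of control) and Myh11, the endothelial genes Tie1 (112%) and Cdh5, the macrophage gene Mrc1 and the erythroid gene Slc4a1 (135%), named after their values were seen. Their part in the values below was not tested. In whole muscle, a change in the number of cells of a type cannot be told apart from a change in RNA per cell.

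None of the 45 translation factor mRNAs passed the threshold in either direction, and all had an adjusted p of 1 in limma, where 0.0119% of all features passed. At an unadjusted p under 0.05 there was 1 gene, Eif3c, which was lower; this was 2.22% of the 45, beside 1.71% of all features lower. In this fit no factor gene was higher at that level, beside 1.38% of all features, and 3.09% of all features (518) differed in either direction. With control mouse 2 left out, Eif4a3 and Eif5a2 were higher at that level, and 572 of all features differed in either direction. With ATF4 mKO mouse 1 left out, no factor gene differed in either direction, beside 444 of all features. With all 6 mice, the log2 fold changes ran from -0.21 to 0.21, that is from 86.7% to 116% of control. Of the 45, 36 lay within 0.1 of 0. Their median was -0.022, with 26 below 0, while the median over all features was 0.0013 and 49.4% were below 0. The levels of the 3 ATF4 mKO mice all lay below those of the 3 controls for 2 genes (4.44%), against 3.89% of all features. They all lay above for 1 gene (2.22%), against 3.89% of all features. These shares are close to the background.

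The standard error of a fold change had a median of 0.087 and ran from 0.067 to 0.13. The 95% interval of every one of the 45 genes lay within 0.5 on the log2 scale in both directions, so that a level under 70.7% or over 141% of control was outside it. For 35 genes it lay within 0.32. The interval of Yars did not overlap with that of any of the 45, whose lowest bound was -0.43, for Eif3e. The median SD within a group was 0.096 for the 45 genes and 0.10 for features above the median level.

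**Figure D1:**
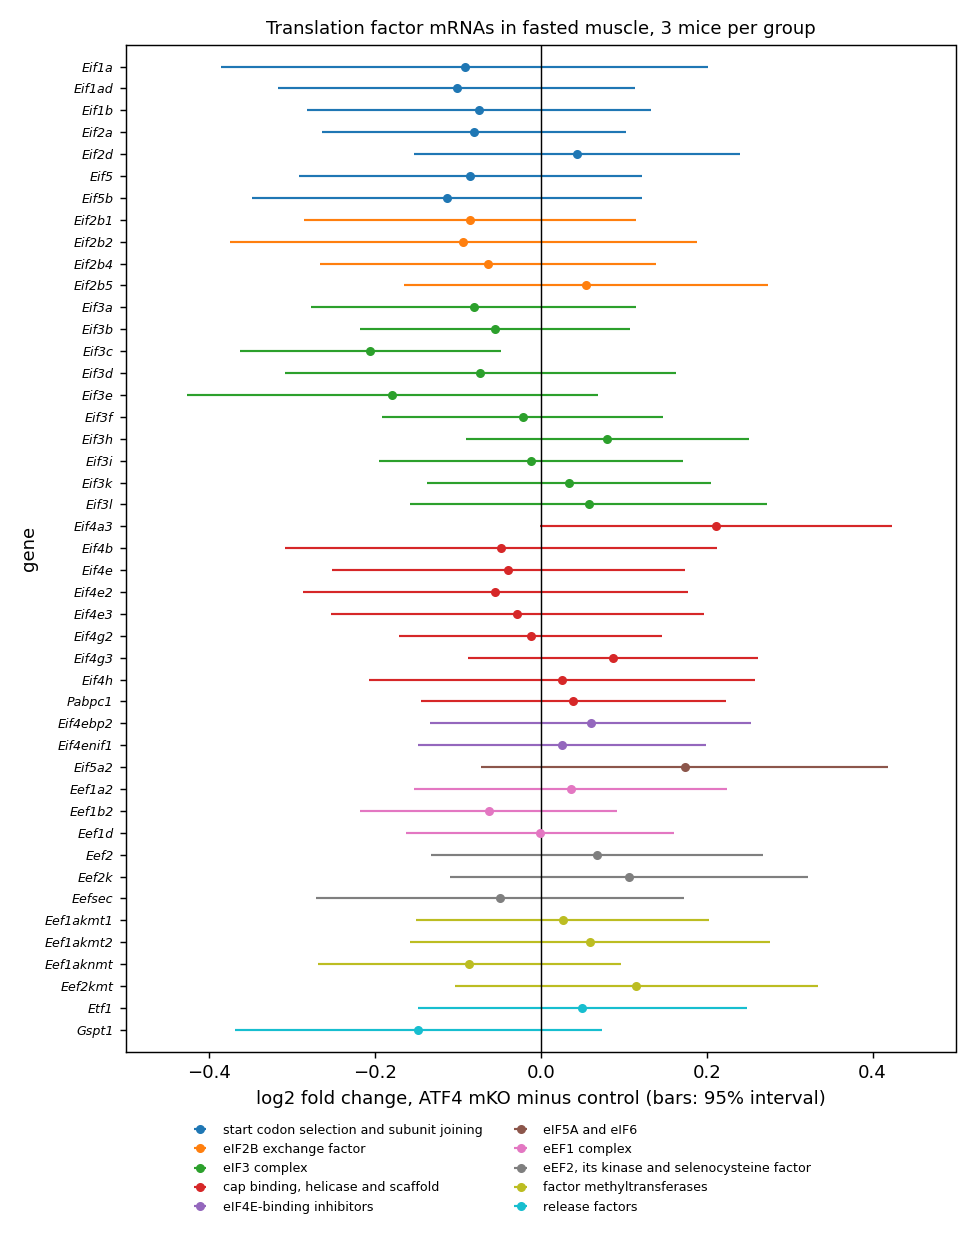
Log2 fold change (ATF4 mKO minus control, horizontal axis) of each of the 45 translation factor genes (vertical axis), coloured by role, with 95% intervals as bars; n = 3 mice per group. The points lie between -0.21 and 0.21, and the interval of Eif3c alone leaves out 0.

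Of the 45, the level of 41 was above the median feature, and that of Eif4b, Eif5a2, Eef1aknmt and Eefsec was below it. Eif4b, a helper of the eIF4A helicase, had a mean at percentile 9.1. Its feature read 4.10, 4.02 and 4.11 in ATF4 mKO and 4.07, 4.36 and 3.95 in control muscle. Signal this low may hide a change.

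**Figure D2:**
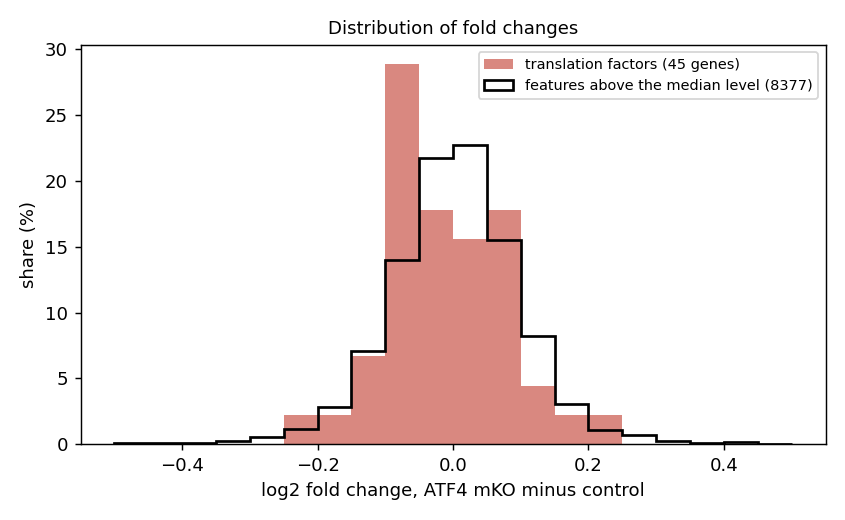
Share (%, vertical axis) of the 45 translation factor genes (filled) and of the 8377 features above the median level (outline) in each step of log2 fold change (ATF4 mKO minus control, horizontal axis). The 45 genes lie between -0.21 and 0.21, which also holds 95.8% of the features above the median level.

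The eIF3 complex, the largest initiation factor and the platform that joins the small subunit to the mRNA, had 10 measured subunits of 14 listed. None passed the threshold, 7 lay below control and the median log2 fold change was -0.038. Eif3c, a core subunit (feature 6971272, chromosome 7), read 9.38, 9.43 and 9.38 in ATF4 mKO muscle, against 9.61, 9.62 and 9.59 in control muscle. The groups did not overlap, and the spread within each was small, with SDs of 0.031 in ATF4 mKO and 0.017 in control mice (n = 3 each). The log2 fold change was -0.21 ± 0.07 (SE; 95% interval -0.36 to -0.048), or 86.7% of control. Its unadjusted p in limma was 0.0169, its adjusted p was 1 and the exact two-sided permutation p was 0.10, the smallest that 3 against 3 mice allow. Without ATF4 mKO mouse 1 its unadjusted p in limma was 0.061.

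Eif3e, a subunit that contacts the scaffold eIF4G, read 8.66, 8.84 and 8.57 in ATF4 mKO and 8.76, 8.82 and 9.04 in control muscle. The groups overlapped, and control mouse 3 was the highest of the 6. The log2 fold change was -0.18 (95% interval -0.43 to 0.069). Eif3a, the largest core subunit, read 9.82, 9.87 and 9.68 in ATF4 mKO and 9.79, 9.95 and 9.87 in control muscle, with a log2 fold change of -0.081 (-0.28 to 0.11). Eif3h, a subunit of the outer module, read 9.78, 9.88 and 9.83 in ATF4 mKO and 9.74, 9.81 and 9.70 in control muscle, with 0.080 (-0.090 to 0.25). In both genes the groups overlapped. The remaining subunits Eif3b, Eif3d, Eif3f, Eif3i, Eif3k and Eif3l had fold changes of -0.073 to 0.058. Leaving out control mouse 3 gave an eIF3 median of -0.062, and leaving out control mouse 1 gave 0.012.

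Eif3l and Eif3d lie on the chromosome of the deleted gene, chromosome 15, at 25 and 50 measured genes from Atf4. Eif3l read 8.00, 8.02 and 7.90 in ATF4 mKO and 8.02, 7.97 and 7.75 in control muscle, with 0.058 (-0.16 to 0.27). Eif3d had -0.073 (-0.31 to 0.16). The other 5 factor genes on that chromosome, Eef1d, Eif3h, Eif3e, Eif4b and Pabpc1, were at least 104 measured genes away.

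**Figure D3:**
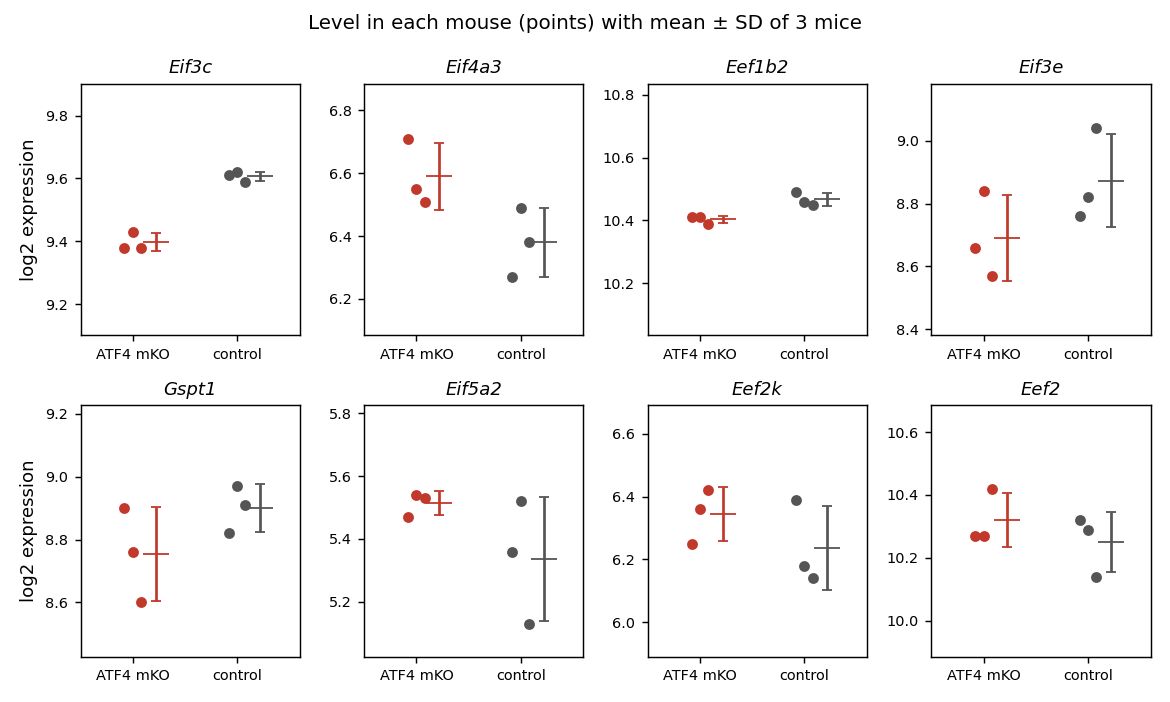
Log2 expression (vertical axis) of 8 translation factor genes in each ATF4 mKO mouse (left, red) and each control mouse (right, grey), with the mean and SD of 3 mice; every panel spans the same 0.8 log2 units. The groups are apart for Eif3c, Eif4a3 and Eef1b2 and overlap for Eif3e, Gspt1, Eif5a2, Eef2k and Eef2. The 8 include every gene of the 45 whose groups were apart. Of the 45, 2 lay below control and 1 above, beside 3.89% of all features in each direction.

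Start codon selection and subunit joining had 7 measured genes of 9 listed, of which none passed and 6 lay below control (median log2 fold change -0.085). Eif5b, the GTPase that joins the large subunit, read 9.35, 9.47 and 9.17 in ATF4 mKO and 9.39, 9.56 and 9.38 in control muscle, with -0.11 (95% interval -0.35 to 0.12). Eif5, which triggers GTP hydrolysis on eIF2 at the start codon, read 9.45, 9.36 and 9.27 in ATF4 mKO and 9.40, 9.57 and 9.36 in control muscle, with -0.085 (-0.29 to 0.12). ATF4 mKO mouse 3 was the lowest of the 6 in both genes, and the groups overlapped.

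Eif2a, which can carry initiator tRNA outside the eIF2 route, read 8.80, 8.83 and 8.69 in ATF4 mKO and 8.91, 8.77 and 8.88 in control muscle, with -0.081 (-0.26 to 0.10). Eif1ad, which encodes a protein with an eIF1A-like domain, read 7.21, 7.41 and 7.11 in ATF4 mKO and 7.33, 7.33 and 7.38 in control muscle. Its log2 fold change was -0.10 (-0.32 to 0.11). The groups overlapped in both. Eif1b, a close relative of Eif1, Eif1a, which helps scanning, and Eif2d, a factor of non-canonical initiation, had -0.074, -0.092 and 0.044. The median of the 7 genes kept its sign when any mouse was left out, with -0.12 when this was ATF4 mKO mouse 1 and -0.033 when it was ATF4 mKO mouse 3.

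For eIF2B, 4 of the 5 subunit genes were measured and none passed. Eif2b1, the regulatory alpha subunit, read 7.06, 7.29 and 7.21 in ATF4 mKO and 7.30, 7.32 and 7.20 in control muscle, with -0.086 (95% interval -0.29 to 0.11). Eif2b5, the catalytic epsilon subunit, read 6.91, 7.09 and 6.80 in ATF4 mKO and 6.95, 6.86 and 6.81 in control muscle, with 0.054 (-0.17 to 0.27). The groups overlapped in both. Eif2b2 and Eif2b4 had -0.094 and -0.064. The eIF2B median of -0.075 was -0.0098 when ATF4 mKO mouse 3 was left out and -0.13 when it was mouse 2 of that group.

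Cap binding, helicase and scaffold genes numbered 9 measured of 15 listed, with none past the threshold and a median of -0.012, which was 0.031 when control mouse 2 was left out. Eif4a3 (feature 6792699, chromosome 11), a helicase of the exon junction complex that marks spliced mRNA, had the highest fold change of the 45 genes. It read 6.71, 6.55 and 6.51 in ATF4 mKO muscle, against 6.27, 6.49 and 6.38 in control muscle. The groups did not overlap, but ATF4 mKO mouse 3 and control mouse 2 differed by little. The log2 fold change was 0.21 ± 0.09 (SE; 95% interval -0.00054 to 0.42), or 116% of control, with an unadjusted p of 0.0505 in limma and an exact permutation p of 0.10.

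Eif4e, the cap-binding protein, read 9.79, 9.65 and 9.57 in ATF4 mKO and 9.59, 9.78 and 9.76 in control muscle, with -0.039 (95% interval -0.25 to 0.17). Eif4g3, one of the scaffolds that hold eIF4E and eIF4A, read 8.82, 8.80 and 8.84 in ATF4 mKO and 8.75, 8.64 and 8.80 in control muscle, with 0.087 (-0.087 to 0.26). Pabpc1, which binds the poly(A) tail and the scaffold, read 8.81, 8.89 and 9.0 in ATF4 mKO and 8.83, 8.91 and 8.84 in control muscle, with 0.039 (-0.14 to 0.22). The groups overlapped in all 3 genes. Eif4g2, a scaffold relative that does not bind eIF4E, had the tightest values of all 45 genes, spanning 0.079 over the 6 mice, and a fold change of -0.012 (-0.17 to 0.15). Eif4e2, Eif4e3, Eif4h and Eif4b had -0.055 to 0.026.

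Both measured eIF4E-binding inhibitors had fold changes near 0. Eif4ebp2, which blocks eIF4E when growth signalling is low, read 7.51, 7.59 and 7.49 in ATF4 mKO and 7.58, 7.36 and 7.46 in control muscle, with 0.060 (95% interval -0.13 to 0.25), or 0.0070 with control mouse 2 left out. Eif4enif1, a carrier of eIF4E into the nucleus, had 0.025 (-0.15 to 0.20). Eif5a2, a less widely expressed form of the hypusine-bearing factor eIF5A, read 5.47, 5.54 and 5.53 in ATF4 mKO and 5.36, 5.52 and 5.13 in control muscle. Control mouse 3 was the lowest of the 6, the groups overlapped, and the fold change of 0.17 (-0.072 to 0.42) was 0.070 without that mouse.

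In the eEF1 complex, 3 of 5 listed genes were measured and none passed. Eef1a2, the muscle and nerve form of the tRNA carrier, read 9.22, 9.31 and 9.38 in ATF4 mKO and 9.35, 9.20 and 9.26 in control muscle, with 0.036 (95% interval -0.15 to 0.22). Eef1b2 (feature 6749923, chromosome 1), which reloads eEF1A with GTP, read 10.41, 10.41 and 10.39 in ATF4 mKO, against 10.49, 10.46 and 10.45 in control muscle. Here the groups did not overlap, but the difference was small, -0.063 ± 0.067 (SE; -0.22 to 0.092), or 95.7% of control. The unadjusted p in limma was 0.375, with 0.00909 when variances were not moderated, and the exact permutation p was 0.10. Eef1d, the other exchange subunit measured, had -0.0012 (-0.16 to 0.16).

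Eef2, the translocase, read 10.27, 10.27 and 10.42 in ATF4 mKO and 10.32, 10.29 and 10.14 in control muscle, with 0.068 (95% interval -0.13 to 0.27). Eef2k, the kinase that inactivates it, read 6.25, 6.36 and 6.42 in ATF4 mKO and 6.39, 6.18 and 6.14 in control muscle, with 0.11 (-0.11 to 0.32). In both genes ATF4 mKO mouse 3 was the highest and control mouse 3 the lowest of the 6, and the groups overlapped. Eefsec, which delivers selenocysteine, had -0.049.

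The enzymes that methylate elongation factors had 4 measured genes of 6 listed and none past the threshold. Eef2kmt, which modifies eEF2, read 6.0, 6.22 and 6.02 in ATF4 mKO and 5.84, 6.0 and 6.05 in control muscle, with 0.12 (95% interval -0.10 to 0.33). Eef1aknmt, which modifies eEF1A, read 5.55, 5.53 and 5.69 in ATF4 mKO and 5.63, 5.74 and 5.66 in control muscle, with -0.086 (-0.27 to 0.096). The groups overlapped in both. Eef1akmt2 read 5.83, 6.01 and 6.0 in ATF4 mKO and 5.99, 5.75 and 5.92 in control muscle, with 0.059 (-0.16 to 0.28), and Eef1akmt1 had 0.026.

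Both release factors were measured. Gspt1, the GTPase eRF3, read 8.90, 8.76 and 8.60 in ATF4 mKO and 8.82, 8.97 and 8.91 in control muscle, with -0.15 (95% interval -0.37 to 0.074). ATF4 mKO mouse 3 was the lowest, and without it the fold change was -0.073. Etf1, which recognises stop codons as eRF1, read 9.27, 9.25 and 9.08 in ATF4 mKO and 9.06, 9.18 and 9.21 in control muscle, with 0.050 (-0.15 to 0.25). The groups overlapped in both.

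Mice of one genotype differed in these genes. ATF4 mKO mouse 3 had the lowest of the 6 values in 19 of the 45 genes (42.2%) and ATF4 mKO mouse 2 the highest in 14 (31.1%). Over features above the median level the same mice were lowest in 24.6% and highest in 22.1%. As a mean over the 45 genes, the level was 7.90, 7.95 and 7.86 in ATF4 mKO mice and 7.93, 7.94 and 7.89 in control mice, so the groups overlapped. Without ATF4 mKO mouse 3 the median fold change of the 45 genes was 0.0086 instead of -0.022. What sets this mouse apart was not tested.

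**Figure D4:**
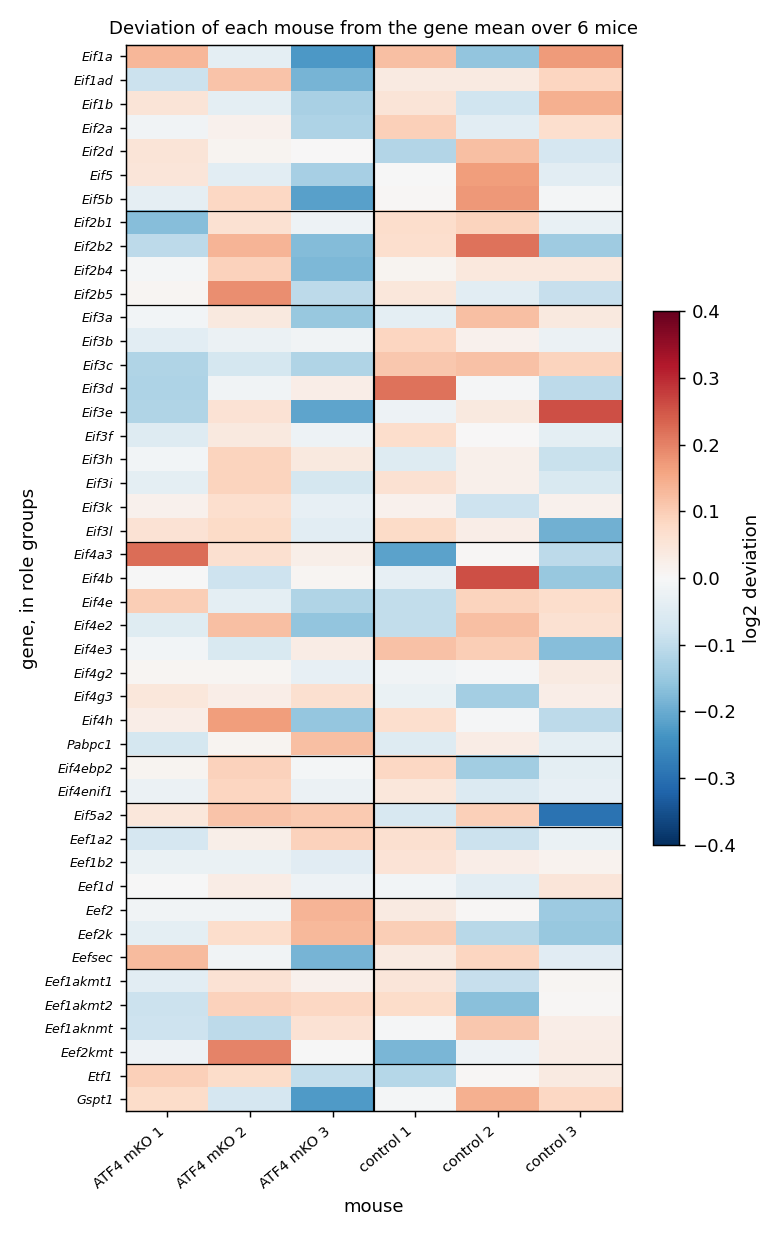
Deviation of each mouse from the mean of the 6 mice (log2, colour) for the 45 translation factor genes (rows, in role groups split by lines) with ATF4 mKO mice left of the vertical line and control mice right of it. ATF4 mKO mouse 3 is the lowest of the 6 in 19 genes, and ATF4 mKO mouse 2 the highest in 14.

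Short motifs of 2 kinds were counted in the promoter windows of the factor genes, since ATF4 binds DNA with C/EBP partners at a composite element and relatives of ATF4 bind the cyclic AMP response element. The windows run from 250 bases before to 50 after the annotated start (RefSeq, GRCm38.p6), and 35 of the 45 genes had 44 of them. The composite letters TGATGNAA, read on both strands, were in 1 of the 35 genes (2.86%), Eef2k, at 1 of its alternative starts, beside 3.97% of all 32851 windows and 4.51% of all 27025 genes. The response element letters TGACGTCA were also in 1 of the 35, Eef2, beside 1.79% of all windows and 2.03% of all genes. The motifs overlapped in neither gene. Yars, lower in ATF4 mKO muscle, held the composite letters 4 bases into its annotated transcript. A match is a description of letters and shows no binding.

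The stretches with a match are printed to set the factor genes beside Yars, 5′ to 3′ on the strand of the gene, with the match in capitals. They begin 120 bases before the start and lie at chr4:129189783-129189917 for Yars (+ strand), chr7:120851069-120851188 for Eef2k (+ strand) and chr10:81176511-81176645 for Eef2 (+ strand).
Yars: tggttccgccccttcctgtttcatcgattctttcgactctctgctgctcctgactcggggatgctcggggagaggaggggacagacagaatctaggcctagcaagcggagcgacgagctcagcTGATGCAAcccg
Eef2k: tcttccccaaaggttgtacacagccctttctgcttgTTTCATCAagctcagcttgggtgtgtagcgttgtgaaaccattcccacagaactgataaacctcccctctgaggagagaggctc
Eef2: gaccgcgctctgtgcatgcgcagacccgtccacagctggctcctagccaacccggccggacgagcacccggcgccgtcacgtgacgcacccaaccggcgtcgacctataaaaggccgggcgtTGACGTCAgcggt

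The next stretches are those of the genes whose groups did not overlap, and hold the 150 bases before the annotated start. Eif3c lies at chr7:126566367-126566516 (- strand), Eif4a3 at chr11:119300044-119300193 (- strand) and Eef1b2 at chr1:63176681-63176830 (+ strand). None holds either motif, so there are no capitals.
Eif3c: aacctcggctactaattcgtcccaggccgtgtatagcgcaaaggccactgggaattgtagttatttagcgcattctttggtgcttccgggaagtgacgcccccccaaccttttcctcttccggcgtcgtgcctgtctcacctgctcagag
Eif4a3: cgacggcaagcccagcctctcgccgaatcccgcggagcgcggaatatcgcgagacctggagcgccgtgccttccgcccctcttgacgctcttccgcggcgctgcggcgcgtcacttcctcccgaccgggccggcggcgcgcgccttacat
Eef1b2: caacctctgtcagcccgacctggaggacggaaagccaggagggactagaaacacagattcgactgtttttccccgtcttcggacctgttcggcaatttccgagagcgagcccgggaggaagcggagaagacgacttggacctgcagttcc

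Other genes of cytosolic translation were read from a list of 36 partners of these factors, of which 27 were measured. None passed the threshold and none had an unadjusted p under 0.05, while 18 lay below control and the median log2 fold change was -0.022. Dph5, an enzyme that helps build the diphthamide residue of eEF2, had -0.30 ± 0.13 (SE; 95% interval -0.60 to 0.012). Mknk2, a kinase of eIF4E, had 0.14 ± 0.07 (SE; -0.035 to 0.31). It was the only gene of the 27 with every ATF4 mKO mouse above every control, beside 3.89% of all features. Mcts2, a relative of the recycling factor Mcts1, had -0.32 (-0.85 to 0.21), and Dohh, the second enzyme of hypusine formation on eIF5A, had -0.14 (-0.41 to 0.12).

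Mitochondrial translation factors had 10 of 11 genes measured, none past the threshold or at an unadjusted p under 0.05, 6 below control and a median of -0.056. Tufm, which encodes the mitochondrial counterpart of eEF1A, had -0.20 (95% interval -0.47 to 0.072), but its feature lay at percentile 1.9 of the mean level, where signal may hide a change. Mtif2, the mitochondrial initiation factor, had -0.12 (-0.32 to 0.074). It was the only gene of the 10 with every ATF4 mKO mouse below every control, beside 3.89% of all features. Tsfm, the exchange factor for Tufm, had 0.10 (-0.12 to 0.32), and Mtrf1l, a mitochondrial release factor, had -0.096 (-0.31 to 0.11). Among 21 measured genes with cytosolic ribosomal protein symbols, relatives such as Rpl3l and Rpl7l1 included, none passed, 9 lay below control and the median was 0.014. In 2 of the 21 every ATF4 mKO mouse lay above every control, beside 3.89% of all features, and in 0 every one lay below. Of the 21, the 1 gene at an unadjusted p under 0.05 in limma was Rps15, beside 3.09% of all features in either direction. Rps15 was named after its values were seen. It had 0.57 (0.35 to 0.78) and an adjusted p of 0.502 in limma. Its mean lay at percentile 12.1 of all features.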

How the data were processed

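The deposited table holds log2 values, 1 per array feature and mouse, which the authors made with GCOS and RMA on build mm9, per the submitters' processing notes. The sources used here give no versions, and the log2 scale was read from the values (1.63 to 13.0, none missing). RMA corrects background, quantile-normalises arrays and summarises probes, so fold changes near background may be compressed. RNA was amplified to cDNA before labelling, per the labels' protocols. Precision is limited by the number of arrays.

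Gene names came from the platform annotation, updated through Entrez identifiers with the RefSeq table of GRCm38.p6 (14941 of 14996 features with 1 symbol matched). RefSeq promoter windows carry coordinates of GRCm38.p6, not of the build of the data. Probe sequences were not used here, so signal from near-identical gene copies could not be assessed.

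All 16755 features were fitted with limma 3.58.1 (R 4.3.3; lmFit, eBayes, group as the only term), with Benjamini-Hochberg adjustment over all features and a threshold of 0.05. Intervals are limma's at 95%. Single values were also given an exact two-sided permutation test. The fit was tested on simulated data. The members and lists were chosen with earlier results of these data known. All members are accounted for; values per mouse are given for up to 10 members per direction with the smallest p and for a set chosen by role, of which Eif4g1, Eif5a and Eef1a1 had no feature of their own. Eef1b2 and Eif4b were added after their values were seen. From the other lists of translation genes, up to 4 with the smallest p are named. Alternatives were a replicate block, other normalisations, filters, moderation, array weights, thresholds and leaving out each mouse. The mice are separate animals, and no arrays were identical.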

Additional observations from a re-analysis of the deposited data

How the results depend on the processing

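Under the 15 other fits no translation factor gene passed an adjusted p of 0.05. The lowest in limma was 0.596, for Eif3c without variance moderation. At an unadjusted p under 0.05 the count was 1 of 45 as reported, beside 518 of all 16755 features. With ATF4 mKO mouse 1 left out the count was 0, beside 444 of all features. With control mouse 2 left out it was 3 (Eif3c lower, Eif4a3 and Eif5a2 higher), beside 572 of all features. The median log2 fold change of the factor genes ran from -0.031 to 0.0086 over 17 alternatives. Some of these, such as the moderation settings and the replicate block, leave every fold change as it was. Eif3c lay between -0.22 and -0.20 and had an unadjusted p under 0.05 in 14 of 15 fits. Eif4a3 lay between 0.15 and 0.27, with an unadjusted p under 0.05 in 7 of 15, and Eef1b2 had one in 1 of 15, without variance moderation (0.00909). The fold change of Eif4e turned to 0.0205 and that of Eef1a2 to -0.0038 with array weights; the cause was not tested. Without 1 mouse the sign turned for Eif4e (-0.0997 to 0.0113), Eef1a2 (-0.0042 to 0.078), Eif2b5 (-0.0235 to 0.12), Pabpc1 (-0.0103 to 0.083), Eef1akmt2 (-0.0097 to 0.12) and Eif3l (-0.0225 to 0.11), none of which passed the threshold in any fit.

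Over all features the count of 2 became 5 or 7 when the lowest 33.3% or 50% of features by mean level were left out, 4 when features with several symbols or none were, 7 when moderation was robust with an intensity trend, 1 after median centring, 0 in limma with no variance moderation (632 at an unadjusted p under 0.05), 4 at an adjusted p under 0.10, and 1 when any mouse was left out (range 1 to 1). Atf4 kept its direction (-1.88 to -1.71). Deviations of same-numbered mice from their group means correlated at -0.0021, 0.069 and 0.14, and those of differently numbered mice at -0.118 to 0.0597. With 3 mice per group these values cannot decide whether the replicate numbers pair the mice. The replicate block gave 1 feature and 0 factor genes.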
